A study of Mus musculus with 6 samples.

Results

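The 10 genes described here encode parts of the synaptonemal complex and of the cohesin complexes that are particular to meiosis. They were listed by name, with earlier results of these data known: Sycp2 and Sycp3 (lateral element), Sycp1 (transverse filament), Syce1, Syce2, Syce3 and Tex12 (central element), and Smc1b, Rec8 and Stag3 (meiotic cohesin). All 10 had a row among the 22432 genes of the authors' deposited table. The study sequenced total RNA from cultured male mouse germline stem cells, the mitotically dividing cells that found sperm production. The cells had been separated by surface CDH1 (E-cadherin, a cell adhesion molecule) among cells positive for THY1 (a surface glycoprotein of germline stem cells, which fibroblasts also carry). There were 3 CDH1+/THY1+ samples and 3 CDH1-/THY1+ samples. Each population was represented by the cultures RP7 (labelled 8 weeks), RP5 (19 days) and WT1 (5 weeks), all male and at passage 6 to 8. RP7 and RP5 had the strain label OCT4/GFP; Dox-OCT4, and WT1 had C57BL/6. All cultures were grown on DR4 mouse embryonic fibroblast feeders with GDNF and FGF. The labels do not say how many animals founded a culture, nor which cells drive the transgenes named in the strain label.

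The synaptonemal complex is a ladder of proteins that holds homologous chromosomes together in meiotic prophase. Its lateral elements run along each chromosome axis, SYCP1 filaments span the gap between the axes, and the central element joins the filaments in the middle. Cohesin is a ring that ties sister chromatids together, and meiotic cells exchange SMC1A for SMC1B, RAD21 for REC8 or RAD21L, and STAG1 or STAG2 for STAG3. Transcripts of some of these genes are known to be present in mouse germ cells before meiosis begins.

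RNA of 9 of the 10 genes was lower in CDH1+/THY1+ than in CDH1-/THY1+ cells, by 1.52-fold to 3.40-fold by the authors' deposited table. The exception was Rec8, the meiotic kleisin, which did not pass the test. A gene is called here when the authors' deposited table gives it an adjusted p under 0.05, from the DESeq2 Wald test. By its values that adjustment was Benjamini-Hochberg with independent filtering, which leaves some genes without an adjusted p. A p-value was given for 22330 genes. Of 19211 genes with an adjusted p, 3146 (16.4%) were called lower and 3292 (17.1%) higher. Against that background, 9 of the 10 were called lower and 0 higher, and at an unadjusted p under 0.05 by DESeq2 the count of higher genes was also 0. The median log2 fold change of the 10 genes was -1.42, beside 0.01 over all tested genes by the authors' deposited table. Values after ± are deposited standard errors of the log2 fold change, which is positive where CDH1+/THY1+ is higher, and fold changes are shrunken towards 0. The adjustment covered 19743 tests, and the 532 tests beyond the rows, all called, were not analysed here; with them 35.3% of tests were called, against 33.5% of the rows.

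The table holds no value per library, so depth per sample and the spread within each population are unknown, and each error is that of the authors' test. The rows reach log2 fold changes of 2.14 on the higher side and -2.94 on the lower side of the authors' deposited table. The direction of each change rests on the name of the table, since Cdh1 itself was not analysed here. In bulk RNA, fewer cells of a type and less RNA per cell cannot be told apart. Mean counts of 18 fibroblast marker genes, the feeder cell type, summed to 392911 by the authors' deposited table, beside 54966 for 18 germ cell marker genes and 12112 for the 10 genes. Of the fibroblast markers, 7 of 18 were called higher in CDH1+/THY1+ cells, beside 17.1% of all tested genes. Of these markers 0 were called lower (median log2 fold change 0.77). At an unadjusted p under 0.05 by DESeq2, 13 were higher, and all 18 lay above 0. Their standard errors stood at a median percentile of 96.25 among the 200 genes of nearest mean count. All 18 germ cell markers lay below 0. The direction of the comparison was not checked against these lists, and the part of fibroblasts in the results below was not tested.

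**Figure D1:**
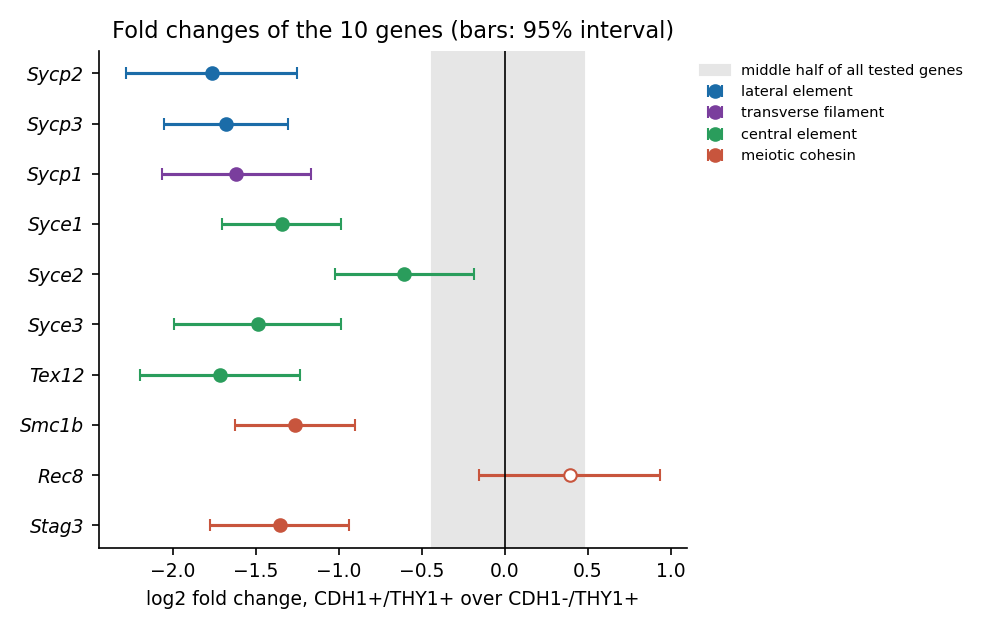
Log2 fold change of each of the 10 genes in CDH1+/THY1+ relative to CDH1-/THY1+ cells, from the authors' deposited table. Bars are 95% intervals from the deposited standard error, filled points were called, colours give the role, and the grey band spans the quartiles of all tested genes. Every interval except that of Rec8 lies below 0.

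The promoters of these genes differ in a short sequence that repressors of germline genes are known to read. In mouse somatic and stem cells, meiotic genes are silenced by a Polycomb complex (PRC1.6) that holds MGA and MAX, which bind the E-box CACGTG, and E2F6, which binds E2F sites with the core TCCCGC. The 300 bases around the start site, 250 before and 50 from it on, were available for all 10 genes from RefSeq (GRCm38.p6). CACGTG, its own reverse complement, was found in a window of 5 of the 10 genes: Sycp1, Sycp3, Syce2, Tex12 and Stag3. Among 12728 tested genes with a window, 11.2% held it. TCCCGC or its reverse complement GCGGGA was found in 7 of the 10 and in 37.4% of those genes. Matches are a description of the letters and show no binding. The 5 windows below are those of 4 called genes with CACGTG and of Rec8, which lacks it. They lie at chr3:102936051-102936350 (minus strand, Sycp1), chr10:88459337-88459636 (plus, Sycp3), chr9:50561219-50561518 (minus, Tex12), chr5:138280259-138280558 (plus, Stag3) and chr14:55617916-55618215 (plus, Rec8). Capitals mark CACGTG and TCCCGC or GCGGGA, which do not overlap in these windows.
Sycp1: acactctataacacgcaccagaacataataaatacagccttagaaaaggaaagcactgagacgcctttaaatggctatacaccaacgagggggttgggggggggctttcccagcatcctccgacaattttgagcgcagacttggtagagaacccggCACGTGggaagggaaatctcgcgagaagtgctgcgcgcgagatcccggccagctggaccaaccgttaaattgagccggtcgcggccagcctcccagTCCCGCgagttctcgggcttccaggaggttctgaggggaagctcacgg
Sycp3: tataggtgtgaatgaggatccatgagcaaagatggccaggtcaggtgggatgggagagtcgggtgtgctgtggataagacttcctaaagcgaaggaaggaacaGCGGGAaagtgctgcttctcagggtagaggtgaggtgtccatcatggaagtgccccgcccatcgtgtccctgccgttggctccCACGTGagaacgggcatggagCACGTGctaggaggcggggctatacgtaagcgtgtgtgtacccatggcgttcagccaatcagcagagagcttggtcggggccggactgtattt
Tex12: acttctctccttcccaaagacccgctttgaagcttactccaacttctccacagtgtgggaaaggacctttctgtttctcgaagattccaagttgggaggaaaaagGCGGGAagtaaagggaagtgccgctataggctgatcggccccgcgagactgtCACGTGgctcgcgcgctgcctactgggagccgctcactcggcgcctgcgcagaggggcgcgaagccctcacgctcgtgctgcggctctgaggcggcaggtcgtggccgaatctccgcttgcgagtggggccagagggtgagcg
Stag3: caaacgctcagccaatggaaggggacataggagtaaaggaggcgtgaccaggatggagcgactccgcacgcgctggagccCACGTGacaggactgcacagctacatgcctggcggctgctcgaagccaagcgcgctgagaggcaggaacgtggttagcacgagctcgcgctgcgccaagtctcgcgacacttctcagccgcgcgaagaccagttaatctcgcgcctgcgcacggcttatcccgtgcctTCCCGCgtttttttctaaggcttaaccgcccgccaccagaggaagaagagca
Rec8: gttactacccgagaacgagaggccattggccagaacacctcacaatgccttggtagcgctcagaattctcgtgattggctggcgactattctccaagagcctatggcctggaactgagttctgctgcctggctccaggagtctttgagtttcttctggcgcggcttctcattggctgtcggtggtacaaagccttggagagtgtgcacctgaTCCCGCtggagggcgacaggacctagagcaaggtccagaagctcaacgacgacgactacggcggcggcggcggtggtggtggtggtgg
The E-box begins 94 bases before the start in Sycp1, 93 before it in Tex12 and 170 before it in Stag3, counted from the RefSeq start of each window. That start lies 269 bases downstream of the GENCODE start in Stag3 and 129 downstream in Rec8, so the Stag3 E-box stands downstream of its GENCODE start. In Sycp3 and Tex12 the offset is 18 and 57 bases, and in Sycp1 it is 0. Sycp3 holds 2 copies, 64 and 43 bases before its start. In Syce2 the E-box lies in the second of its 2 windows, 88 bases before that start. This second start lies 147 bases downstream of the GENCODE start, so the Syce2 E-box also stands downstream of its GENCODE start. Sycp2, Syce1 and Syce3 held neither motif, and all 3 were called lower, while Smc1b and Rec8 held the E2F core alone. CpG dinucleotides numbered 21 in the Sycp1 window, 15 in Sycp3, 26 in Tex12, 30 in Stag3 and 18 in Rec8, beside a median of 19 over the windows of tested genes. Of the genes with neither motif, Sycp2 had 10, Syce1 14, and Syce3 15 and 5 in its 2 windows. Smc1b had 29, and Syce2 had 19 and 33. Both motifs hold a CpG, and the shares of tested genes with a motif were not matched for CpG number.

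Both lateral element genes were called lower. Sycp2 (chromosome 2, 178345293 to 178407685, GRCm38), which encodes the larger axial core protein, had a mean normalised count of 431 over the 6 libraries and a log2 fold change of -1.77 ± 0.26 by the authors' deposited table (3.40-fold lower, adjusted p = 6.45e-10). Sycp3 (chromosome 10, 88459569 to 88473236) encodes its binding partner, a fibre-forming axis protein and the usual cytological marker of meiotic chromosomes. Its mean count was 1132 and its log2 fold change -1.68 ± 0.19 by the authors' deposited table (3.20-fold lower, adjusted p = 1.33e-16), the lowest adjusted p of the 10 genes. The pair have near-equal folds but unlike levels. Per kilobase of exon, the mean count of Sycp3 was 896 and that of Sycp2 was 72.3. On the opposite strand, 660 of the 1264 exon bases of Sycp3 (52.2%) are also exon of Chpt1, a phospholipid synthesis gene. Chpt1 had 0.01 ± 0.19 by the authors' deposited table, without a call (adjusted p = 0.973). The sources used here do not say whether counting used strand, and reads of the shared bases may have been left out or shared.

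Sycp1 (chromosome 3, 102818499 to 102936100), the only transverse filament gene, had a mean count of 1489. It had a log2 fold change of -1.62 ± 0.23 by the authors' deposited table (3.07-fold lower, adjusted p = 5.76e-11). Its 95% interval, -2.07 to -1.17, overlaps those of Sycp2 (-2.28 to -1.25) and Sycp3 (-2.05 to -1.30).

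All 4 central element genes were called lower, with Syce2 apart from the others in size. Tex12 (chromosome 9, 50556819 to 50561325), which encodes the small partner that assembles with SYCE2, had a log2 fold change of -1.71 ± 0.25 by the authors' deposited table (3.28-fold lower, adjusted p = 1.3e-10) at a mean count of 198. Syce3 (chromosome 15, 89390174 to 89410503), whose product links SYCP1 to the central element, had a log2 fold change of -1.49 ± 0.26 by the authors' deposited table (2.80-fold lower, adjusted p = 1.3e-07) at a mean count of 145. Syce1 (chromosome 7, 140777229 to 140787852), a SYCP1-binding component, had a log2 fold change of -1.34 ± 0.18 by the authors' deposited table (2.54-fold lower, adjusted p = 1.02e-11) at a mean count of 548. Syce2 (chromosome 8, 84872111 to 84888221) fell by 0.60 on the log2 scale, with a standard error of 0.21, by the authors' deposited table (1.52-fold lower, adjusted p = 0.0176, mean count 1057). The interval of Syce2, -1.02 to -0.18, does not meet that of its partner Tex12, -2.20 to -1.23. The difference between genes was not tested, since their errors share libraries. Under a Benjamini-Yekutieli adjustment Syce2 was no longer called (adjusted p = 0.233), which left 8 of the 10 genes called lower, beside 8.81% of all genes with a p-value. The 3′ part of Syce2 overlaps Gcdh, a mitochondrial dehydrogenase gene on the other strand, in span but in 0 exon bases, and Gcdh was called higher (0.94 ± 0.23, adjusted p = 0.000228) by the authors' deposited table.

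Among the meiotic cohesin genes, Stag3 and Smc1b had the highest mean counts of the 10, not divided by length. Together they held 57.3% of the counts of all 10. Stag3 (chromosome 5, 138280240 to 138312393), the meiotic stromal antigen subunit, had a mean count of 3714 and stood at -1.35 ± 0.21 by the authors' deposited table (2.56-fold lower, adjusted p = 5.95e-09). Smc1b (chromosome 15, 85064689 to 85131964), the meiotic SMC1 subunit, had 3231 and stood at -1.26 ± 0.18 by the authors' deposited table (2.40-fold lower, adjusted p = 2.31e-10). Rec8 (chromosome 14, 55618037 to 55625395), the kleisin that separase cleaves in meiosis, had 0.39 ± 0.28 at a mean count of 166 by the authors' deposited table, without a call (adjusted p = 0.288). The 95% interval of Rec8, -0.16 to 0.94, spans 0 and lies wholly above the intervals of the other 9 genes. The intervals of the 8 called genes other than Syce2 all overlap each other, from a shared lower bound of -1.62 to a shared upper bound of -1.30. Stag3 and Smc1b are the subunits that join REC8 or RAD21L in a ring, so genes of 1 complex had unlike values.

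The mean count of a gene and its fold change together give a level in each population, with no error, and with a gap that shrinkage makes too small. For Sycp3 these levels were 427 per kilobase of exon in CDH1+/THY1+ and 1364 in CDH1-/THY1+ cells. Smc1b had 470 per kilobase in CDH1+/THY1+ and 1127 in CDH1-/THY1+ cells, and Stag3 had 364 in CDH1+/THY1+ and 931 in CDH1-/THY1+. Syce2 had 426 in CDH1+/THY1+ and 648 in CDH1-/THY1+ cells. Sycp2 had 32.9 in CDH1+/THY1+ and 112 in CDH1-/THY1+ cells, and Rec8 had 64.3 in CDH1+/THY1+ and 49.0 in CDH1-/THY1+. With merged exons the highest level in CDH1+/THY1+ cells was thus that of Smc1b, with Sycp3 and Syce2 next and Sycp2 lowest. In CDH1-/THY1+ cells Sycp3 was highest and Rec8 lowest. The longest transcript raised the mean level of Syce2 from 537 to 627 per kilobase. The order of Smc1b, Sycp3 and Syce2 in CDH1+/THY1+ cells therefore depends on the length used. By the mean over the 6 libraries the order per kilobase was Sycp3 (896), Smc1b (798), Stag3 (648), Syce2 (537), Sycp1 (419), Syce1 (376), Syce3 (261), Tex12 (194), Sycp2 (72.3) and Rec8 (56.7). With the longest transcript in place of merged exons, Rec8 (76.2) stood above Sycp2 (75.5) and Stag3 (796) stood just under Smc1b (798), so these neighbours in the order are not separated. The level of Sycp3 exceeded that of 95.6% of tested genes per kilobase, and Rec8 lay near the middle, above 51.1%.

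**Figure D2:**
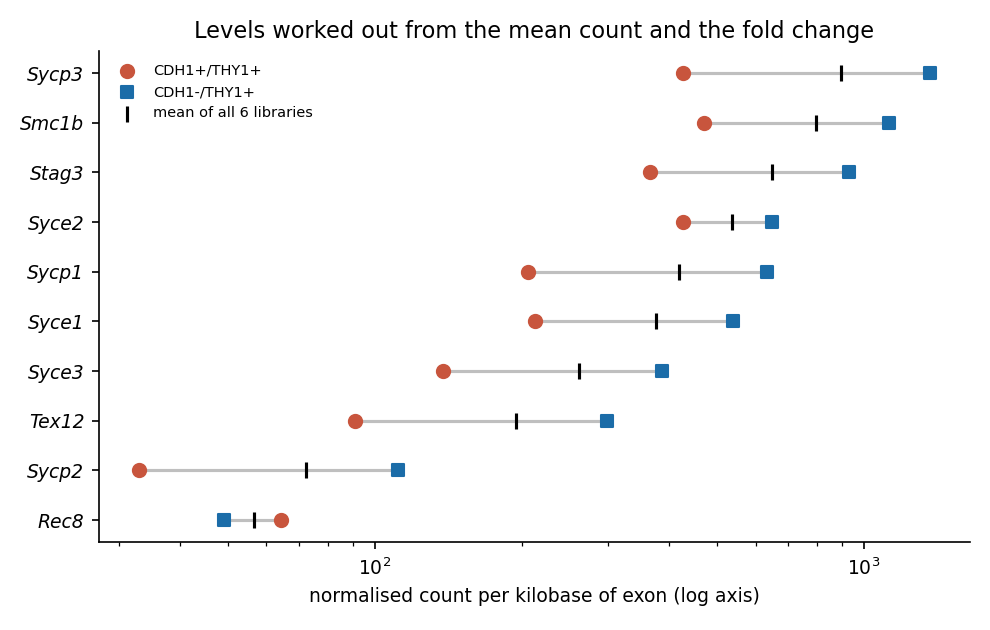
Normalised count per kilobase of merged exons for each of the 10 genes, on a log axis, worked out for CDH1+/THY1+ (circles) and CDH1-/THY1+ (squares) from the deposited mean count (ticks) and fold change, with no error. CDH1+/THY1+ circles lie left of the CDH1-/THY1+ squares for every gene but Rec8.

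**Figure D3:**
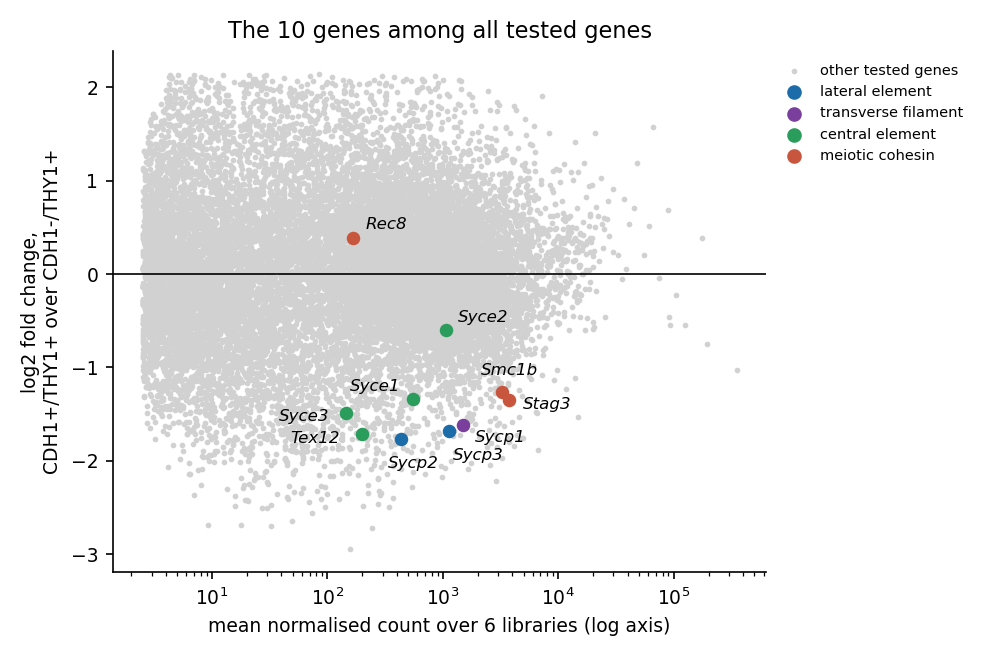
Log2 fold change in CDH1+/THY1+ relative to CDH1-/THY1+ cells against the mean normalised count over 6 libraries (log axis) for all tested genes in grey and the 10 genes in colour by role. All 10 had mean counts above 100, and 8 of them lie at -1.26 or lower.

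The 8 genes other than Syce2 and Rec8 were lower by at least 2-fold, beside 6.54% of all tested genes. By the Wald statistic, 8 of the 10 genes were among the 1000 lowest of 22330 genes, from position 58 for Sycp3 to position 486 for Syce3. Syce2 stood at position 2584 and Rec8 at 16674. By the size of the fold the lowest of the 10, Sycp2, was at position 253. The standard errors of the 10 genes stood at the 46.5th to the 91.5th percentile among the 200 genes of nearest mean count, highest for Sycp1.

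General cohesin subunits, which serve mitotic cells too, had log2 fold changes in both directions. Of 5, 2 were called lower and 2 higher, beside 16.4% and 17.1% of all tested genes. Smc1a, replaced by SMC1B in meiosis, had 0.44 ± 0.19 (adjusted p = 0.0481) by the authors' deposited table, against -1.26 for Smc1b. Stag2 had 0.34 ± 0.13 (adjusted p = 0.0251) and Stag1 -0.55 ± 0.11 (adjusted p = 1.22e-05) by the authors' deposited table, against -1.35 for Stag3. Rad21, the mitotic kleisin, had -0.49 ± 0.17 (adjusted p = 0.0129) by the authors' deposited table, and Smc3, shared by all cohesin rings, had -0.33 ± 0.15 and was not called (adjusted p = 0.084). Rad21l, the second meiotic kleisin, had a log2 fold change of -1.78 ± 0.29 by the authors' deposited table (adjusted p = 2.03e-08, mean count 220), so the meiotic kleisins had unlike values: Rec8 at 0.39 was not called. The general subunits had mean counts of 2765 to 6520, in the same range as Stag3 and Smc1b. Under the Benjamini-Yekutieli adjustment the calls left were 1 lower (Stag1) and 0 higher, and the call of Smc1a was also lost with Benjamini-Hochberg adjustment over every gene with a p-value (adjusted p = 0.0589). Among 12 genes of cohesin loading, release and cleavage, 2 were lower and 4 higher, with a median of 0.02. The lower count is near the 16.4% of all tested genes called lower, and 17.1% were called higher. Esco1, a cohesin acetyltransferase, had a log2 fold change of -0.86 ± 0.13 (adjusted p = 3e-09) by the authors' deposited table, and Sgo1, the mitotic protector of centromeric cohesin, had 0.71 ± 0.19 (adjusted p = 0.00086). The acetylated ring is held or released by the PDS5 proteins, and Pds5a had 0.55 ± 0.17 and Pds5b -0.57 ± 0.13 by the authors' deposited table, called in opposite directions. The securin gene Pttg1 (0.59 ± 0.19) and the loader gene Nipbl (0.29 ± 0.12, adjusted p = 0.0481) were the other higher calls by the authors' deposited table, and that of Nipbl was lost with Benjamini-Hochberg adjustment over every gene with a p-value (adjusted p = 0.0590). Of 13 proliferation genes 5 were called higher and 0 lower in the same comparison (median 0.24, with Rrm2 at 1.81 ± 0.24 by the authors' deposited table), and their part in the values of general cohesin genes was not tested.

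**Figure D4:**
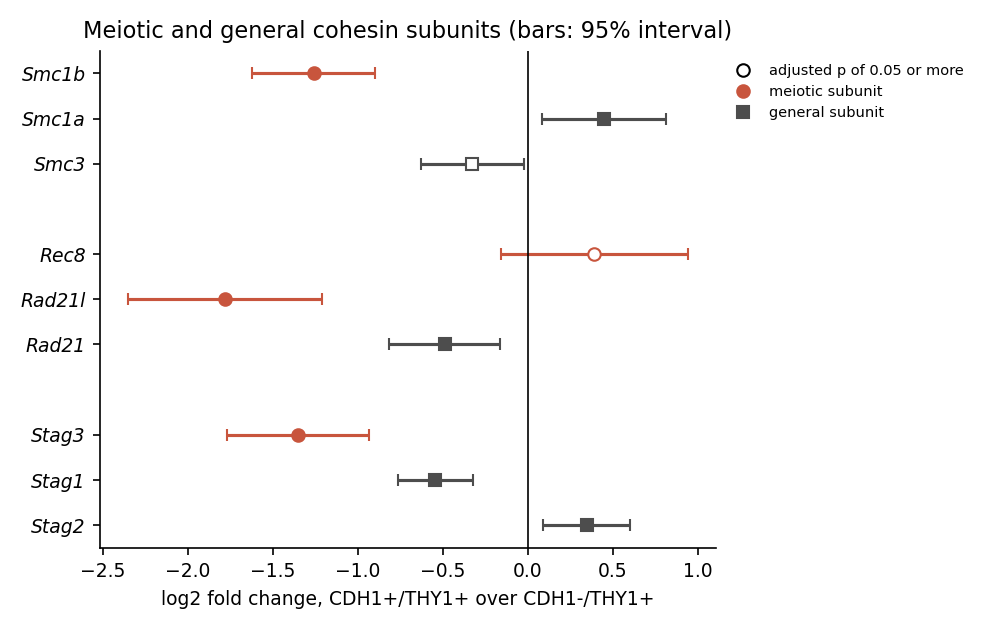
Log2 fold change in CDH1+/THY1+ relative to CDH1-/THY1+ cells of meiotic (circles) and general (squares) cohesin subunits, grouped as SMC, kleisin and stromal antigen subunits, with 95% intervals from the deposited standard errors. Smc1b, Rad21l and Stag3 lie between -1.78 and -1.26, while Rec8 and the general subunits lie between -0.55 and 0.44.

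Of 9 other tested genes of the meiotic axis 6 were called lower and 1 higher, with a median log2 fold change of -0.57. Over all tested genes 16.4% were called lower and 17.1% higher. Syce1l, a paralog of Syce1, had a log2 fold change of -2.35 ± 0.40 by the authors' deposited table (adjusted p = 5.79e-08), at a mean count of 36.6. Hormad1, an axis protein that recruits the break machinery, had a log2 fold change of -0.89 ± 0.17 (adjusted p = 1.69e-06) and its relative Hormad2 one of -0.57 ± 0.23 (adjusted p = 0.0379) by the authors' deposited table. Ccdc36, also called Iho1, a HORMAD1 partner, had a log2 fold change of -1.25 ± 0.24 (adjusted p = 3.07e-06), and Trip13, the ATPase that strips HORMADs from axes, one of -0.51 ± 0.15 (adjusted p = 0.00252) by the authors' deposited table. Six6os1, the fifth central element gene, had -0.40 ± 0.18 and was not called (adjusted p = 0.0658) by the authors' deposited table, beside -0.60 for Syce2. The gene called higher was Sgo2a, the shugoshin that shields REC8 from separase, with 0.64 ± 0.19 by the authors' deposited table (adjusted p = 0.00323). Sycp2l, an oocyte paralog of Sycp2, had 1.31 ± 0.63 at a mean count of 5.51, without a call (adjusted p = 0.0952) by the authors' deposited table. Meikin, a meiotic kinetochore gene, had a row but no adjusted p.

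Of 8 genes that tie meiotic telomeres to the nuclear envelope, 1 was called lower, beside 16.4% of all tested genes, and 0 higher. That gene was Terb1, at -0.87 ± 0.32 (adjusted p = 0.0217) by the authors' deposited table, and the median of the list was -0.51. The other 7 were not called and ranged from -1.05 for Spdya to 0.19 for Sun1 by the authors' deposited table. Of 6 regulators of meiotic entry, 4 were called lower and 0 higher, with a median of -1.32. The count was 3 under each of 6 alternatives, with Gm4969 left out by construction at a mean count of at least 100 and Meioc lost in the other 5. Meioc, which steadies the meiotic programme with YTHDC2, was the weakest call, at -0.57 ± 0.23 (adjusted p = 0.0431, and 0.0529 with Benjamini-Hochberg adjustment over every gene with a p-value) by the authors' deposited table, and Ythdc2 had -0.26 ± 0.16 without a call. Gm4969, now named Meiosin, the partner of STRA8 in switching on meiotic genes including those of the synaptonemal complex, had a log2 fold change of -2.01 ± 0.35 (adjusted p = 1.97e-07) by the authors' deposited table. Stra8 itself had -0.88 ± 0.39 at a mean count of 111 and was not called (adjusted p = 0.0632) by the authors' deposited table. The RNA-binding protein gene Rbm46 had a log2 fold change of -1.85 ± 0.24 and Dmrt1, which controls the switch between mitosis and meiosis in spermatogonia, one of -1.75 ± 0.22 by the authors' deposited table. Beside 16.4% of all tested genes called lower and 17.1% higher, 9 of 19 recombination genes with a row were lower and 2 higher. Their median was -0.77. Among them the break formation gene Mei1 (-2.40 ± 0.31) and the crossover genes Rnf212 (-1.83 ± 0.34), Tex11 (-1.67 ± 0.20) and Msh4 (-1.23 ± 0.23) had the largest statistics by the authors' deposited table. Spata22 was not analysed here.

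Of 12 silencers of germline genes 3 were called lower and 1 higher, with a median of -0.02. The shares of all tested genes were 16.4% lower and 17.1% higher. Among the PRC1.6 genes named above, E2f6 had a log2 fold change of -0.86 ± 0.21 (adjusted p = 0.000206) and Mga one of -0.54 ± 0.16 (adjusted p = 0.00258) by the authors' deposited table. Max had 0.00 ± 0.14 and was not called, and binding of these proteins to the promoters was not tested. Setdb1, an H3K9 methyltransferase gene, had a log2 fold change of -0.56 ± 0.17 (adjusted p = 0.00416), and the Polycomb ligase gene Rnf2 had 0.34 ± 0.14 (adjusted p = 0.0442) by the authors' deposited table. The call of Rnf2 was lost with Benjamini-Hochberg adjustment over every gene with a p-value (adjusted p = 0.0543), which left 0 silencers higher. The DNA methylation genes Dnmt1 (-0.33 ± 0.16), Dnmt3b (-0.00 ± 0.37) and Uhrf1 (-0.04 ± 0.17) had no call by the authors' deposited table.

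Of the 18 germ cell markers 17 were called lower and 0 higher, beside 16.4% and 17.1% of all tested genes. Their median was -1.71. Ddx4, a helicase gene used as a general germ cell marker, had -1.73 ± 0.17 (adjusted p = 3.19e-22) by the authors' deposited table, and Dazl, a germ cell RNA-binding protein gene, -1.53 ± 0.21 (adjusted p = 4.34e-12). Their mean counts, 4419 and 14797, show that transcripts of the labelled cell type were present. Tdrd1 (-2.22 ± 0.20), Zbtb16 (-1.86 ± 0.18), Mov10l1 (-1.84 ± 0.16) and Tex15 (-1.76 ± 0.13) had the largest statistics of that list by the authors' deposited table. The 8 called genes of the synaptonemal complex and cohesin other than Syce2 spanned -1.77 to -1.26. Of the 18 markers 8 lay within that range, 7 below it and 3 above it. The marker lists of other cell types stood as follows. Of fibroblast markers, Fn1 (fibronectin) had 0.72 ± 0.14 (adjusted p = 6.13e-06), and Vim 0.95 ± 0.26 by the authors' deposited table, while Col1a1 had 0.81 ± 0.49 and was not called (adjusted p = 0.197). Of 6 tested Sertoli cell markers 1 was higher (Clu, 0.75 ± 0.30 by the authors' deposited table), beside 17.1% of all tested genes. Their summed mean counts were 1760, of which Clu gave 1582, and Fshr and Rhox5 were not analysed here. Of 2 tested Leydig cell markers 0 were called, at mean counts of 25.4 for Star and 2.55 for Cyp11a1, and the other 3 were not analysed here. The macrophage markers Cd68 (1.65 ± 0.33) and Ptprc (1.52 ± 0.51) were both higher by the authors' deposited table, at mean counts of 134 and 13.9, and the other 3 were not analysed here. The part of these cell types in the values of the 10 genes was not tested.

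**Figure D5:**
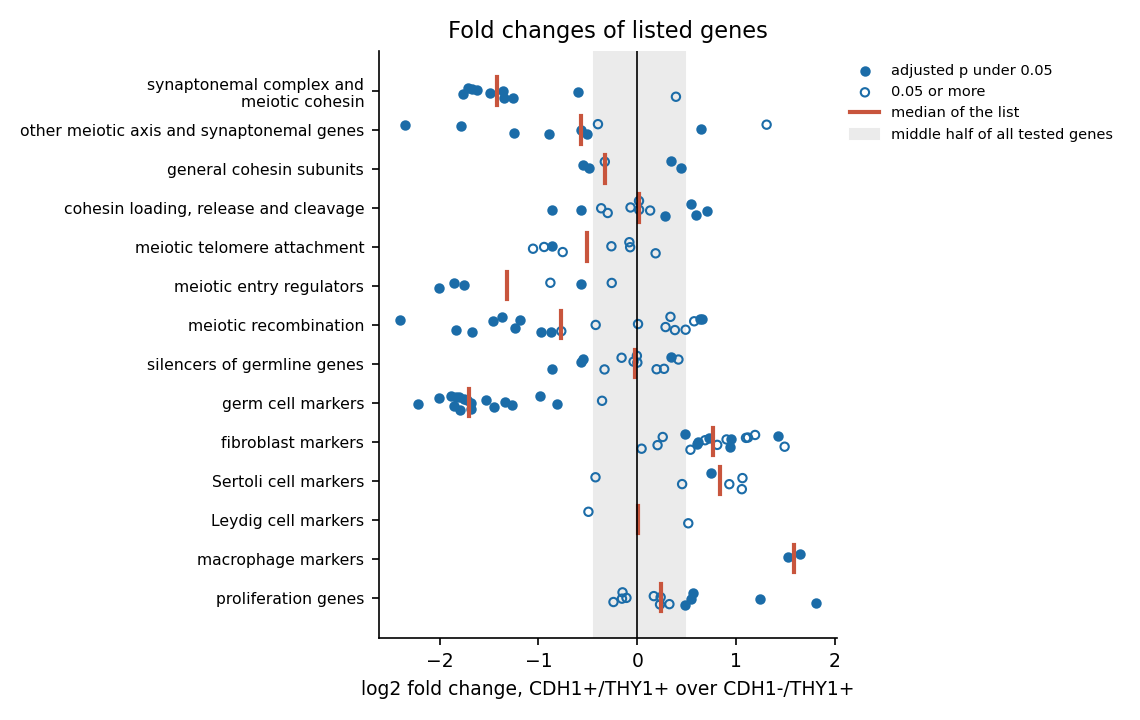
Log2 fold change in CDH1+/THY1+ relative to CDH1-/THY1+ cells of every tested gene of each list, with filled points for genes called at an adjusted p under 0.05, a line at the median and a grey band for the quartiles of all tested genes. The 10 genes and the germ cell markers lie lowest as lists, with medians of -1.42 and -1.71, and the fibroblast markers lie above 0, with a median of 0.77.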

How the data were processed

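Total RNA of 6 samples, depleted of ribosomal RNA and made into stranded libraries, was sequenced on a NextSeq500, per the labels' protocols. The tools were Trimmomatic 0.32, TopHat2 2.1.1, Subread 1.5.0-p3 (featureCounts) and, in R 3.3.1, DESeq2 1.12.3, with genome build GRCm38.p4, per the submitters' processing notes. The annotation release, counting settings and model formula are not given in the sources used here. The deposited table holds a mean normalised count per gene, a signal averaged over all 6 libraries. It also holds a deposited log2 fold change with its standard error, a deposited Wald statistic (a score equal to their ratio to within 2e-07), and a deposited p-value and adjusted p-value. Standard errors do not exceed 0.639, a sign that the fold changes were shrunken. No value per library was used, so no test of the reads, SD or fit with the culture as a block was run, and replicate samples could not be compared.

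Symbols, positions and exon lengths came from GENCODE M21 (GRCm38), matched on the Ensembl ID for 22317 of 22432 rows. Intervals of 95% are the fold change plus or minus the normal quantile times the standard error. Population levels were worked out from the mean count and fold change, with 3 libraries in each population. The number of tests was solved from the p-values, adjusted p-values and ranks. Adjustments were repeated in Python 3.11.15 and tested on simulated data. Overlapping exons were counted, and transcripts were searched with blastn for other genes of at least 95% identity over at least 75 bases. Of the 10 genes, 7 had no such gene. Sycp3 shared a stretch with its overlapping gene Chpt1, and Sycp1 and Stag3 shared stretches of at most 123 and 109 bases with many genes. Promoter windows came from RefSeq (GRCm38.p6), matched by symbol for all 10 genes.

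The 10 genes and all lists were chosen with earlier results of these data known. The naming rule took the 10 genes and allowed any tested gene of lists of up to 12 symbols, the 4 called genes with the largest statistics of longer lists, the named markers and the neighbouring genes. Counts and medians of lists are descriptions.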

Additional observations from a re-analysis of the deposited data

How the results depend on the processing

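No paired analysis was possible because the table holds no value per library, and leaving out a library was not possible for the same reason. Each count was repeated under 6 alternatives fixed at the start, and each adjusted p under the 4 that change it (3 for Sycp1). The count of lower genes among the 10 was 9, and 8 under the Benjamini-Yekutieli adjustment, an adjusted p under 0.01, a change of at least 2-fold, and without the 10% of genes whose standard errors were largest at their mean count, where Sycp1 is left out by construction; no gene of the 10 was called higher under any of the 6. Of 39 adjusted p-values of the 10 genes under alternatives, 38 kept their side of 0.05, the exception being Syce2 (0.233, Benjamini-Yekutieli). List counts changed by over 1.5 times in 42 of 156 cases. Lists with 0 calls in a direction also had 0 genes there at an unadjusted p under 0.05 by DESeq2. At 2-fold or more, other axis genes had 3 lower (against 6) and 0 higher (against 1), general cohesin 0 and 0 (2 and 2), loading genes 0 and 0 (2 and 4), silencers 0 and 0 (3 and 1), telomere genes 0 lower (1), and recombination genes 0 (2), fibroblast markers 1 (7), Sertoli markers 0 (1) and proliferation genes 2 (5) higher. Under Benjamini-Yekutieli, general cohesin had 1 lower and 0 higher, loading genes 1 higher, telomere genes 0 lower, and recombination genes 1, silencers 0, fibroblast markers 2, Sertoli markers 0, macrophage markers 1 (2) and proliferation genes 3 higher. At an adjusted p under 0.01, general cohesin had 1 lower and 0 higher, telomere genes 0 lower, and recombination genes 1, silencers 0, fibroblast markers 4, Sertoli markers 0, macrophage markers 1 and proliferation genes 3 higher. With Benjamini-Hochberg adjustment over every gene that has a p-value, general cohesin had 1, recombination genes 1 and silencers 0 higher. The same counts held without the large standard errors. That filter left 6 fibroblast markers, 4 of them higher, and 4 Sertoli markers, 0 of them higher. It left out Clu, the Sertoli marker called higher, by construction. At a mean count of at least 100, telomere genes had 0 lower and macrophage markers 1 higher. This minimum left out Terb1 and Ptprc by construction. Counts per kilobase moved by over 10% with the longest transcript for Syce2 (627), Syce3 (301), Rec8 (76.2) and Stag3 (796). CANNTG, of which CACGTG is a case, was found in 9 of the 10 genes and in 68.6% of tested genes.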

Other observations

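Neighbouring genes were looked up for each of the 10 genes, as the nearest gene with a row on each side. Of 18 tested neighbours 3 were called lower and 0 higher, with a median log2 fold change of -0.26. Over all tested genes 16.4% were called lower and 17.1% higher, so the lower count is near that share. Genes that overlap 1 of the 10 genes, such as Gcdh, which was called higher, were not counted as neighbours. Ppp1r3d, a glycogen phosphatase subunit gene that ends 3521 bases upstream of the Sycp2 start, had a log2 fold change of -1.18 ± 0.25 by the authors' deposited table (adjusted p = 1.86e-05). Ipo4, an importin gene whose 3′ end lies 5 bases from that of Rec8 on the other strand, had a log2 fold change of -0.90 ± 0.16 by the authors' deposited table (adjusted p = 3.71e-07), at a mean count of 4032 beside 166 for Rec8. Gnptab, a gene of lysosomal enzyme sorting 12240 bases from Sycp3, fell by 0.36 on the log2 scale by the authors' deposited table (standard error 0.13, adjusted p = 0.0246). Ribc2, whose start lies 114 bases from that of Smc1b in the opposite direction, had -0.89 ± 0.46 at a low mean count by the authors' deposited table, without a call (adjusted p = 0.123). Gpc2, which starts 235 bases from Stag3 in the opposite direction, had -0.32 ± 0.42 by the authors' deposited table, without a call (adjusted p = 0.600), beside -1.35 for Stag3. Il18, a cytokine gene whose span holds Tex12 on the other strand with 0 shared exon bases, had 0.52 ± 0.54 by the authors' deposited table, without a call (adjusted p = 0.49).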
